A study of Cannabis sativa with 6 samples.

Results

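The 3 libraries described here were made from female flowers of feral hemp (Cannabis sativa), and they are 3 of 6 libraries in a study of female and male flowers. They were chosen by the sex given in the labels, and no measured value entered that choice. The females carry the locations Merick, Madison and Knox in Nebraska, 1 library each, and the 3 male libraries carry the same 3 locations. Every plant was grown in pots in a growth chamber or greenhouse with 16 hours of light for the first 10 weeks and 11 hours after that to bring on flowering. The labels record no genotype, cultivar, age at sampling or treatment beyond this. Whether 1 plant or several went into a library is not stated, so location, plant and library cannot be told apart. Any p-value below takes libraries as its units and does not measure the spread between plants of a location.

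Hemp is a dioecious plant in which females carry an X pair and males an X and a Y. The female inflorescence bears glandular trichomes, surface hairs that make and store cannabinoids and terpenes. In these hairs a polyketide synthase and olivetolic acid cyclase form olivetolic acid, which is prenylated and then closed into cannabidiolic acid or a related acid by an oxidocyclase. Flower tissue also holds green bracts, stigmas and vascular tissue, so a bulk library mixes RNA from all of them. Fewer cells of a type and less RNA per cell cannot be told apart in such libraries, and this holds for each level below.

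Levels are in CPM, the count of a gene divided by the summed gene counts of its library and multiplied by 1000000. Gene counts summed to 38672535 in the Merick, 35013536 in the Madison and 26945432 in the Knox female. A count of 3 corresponds to 0.0776, 0.0857 and 0.111 CPM in these libraries. CPM is not divided by transcript length, so the order of genes by CPM is an order of shares of reads, in which long transcripts gain, and not of molecules.

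Of 29777 gene rows, 18891 had a count in all 3 females, 22024 in at least 1 of them, and 7753 in none. At 1 CPM or more, 16379 genes were detected in the Merick, 16763 in the Madison and 16949 in the Knox female, a mean of 16697 ± 291 (SD, n = 3). In all 3 females 15545 genes reached 1 CPM and 10524 reached 10 CPM. Genes under 1 CPM in a single female were most numerous for Merick: 655 genes were under 1 CPM there and at 1 CPM or more in both others, against 311 such genes for the Madison and 242 for the Knox female. Conversely, 281 genes reached 1 CPM in the Merick female alone, 321 in the Madison female alone and 438 in the Knox female alone. These counts for single females rest on library totals and were not repeated with another scaling. The Merick library was the deepest of the 3, and thinning each library to the depth of the Knox female gave 15575 genes at 1 CPM in all 3.

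Reads were concentrated in few genes, most of all in the Merick female. The 10 most abundant genes of a library held 7.64% of its gene counts in the Merick female (95% exact binomial interval 7.64 to 7.65), 6.28% in the Madison female (6.27 to 6.29) and 6.10% in the Knox female (6.09 to 6.10). The 100 most abundant genes held 25.2%, 20.98% and 21.2% in the same order, and the 1000 most abundant held 54.4%, 49.4% and 49.6%. It took 745 genes to hold 50% of the counts in the Merick female, 1038 in the Madison and 1026 in the Knox female. The intervals cover counting error only and say nothing of the spread between plants or libraries. Without the Merick female, the mean share of the top 10 genes was 6.19% in place of 6.67% ± 0.85 and that of the top 100 genes 21.1% in place of 22.5% ± 2.34 (SD, n = 3).

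**Figure D1:**
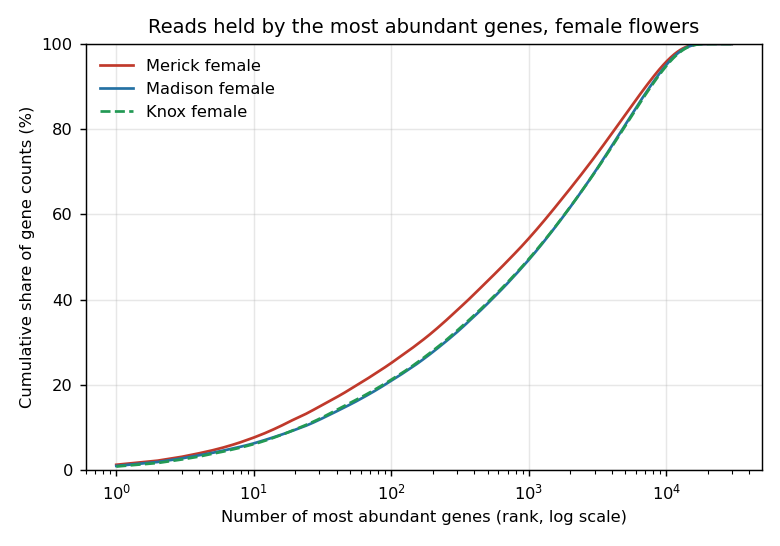
Cumulative share of gene counts (y axis, %) held by the most abundant genes of each female library (x axis, number of genes by rank, log scale); each line is 1 library, and the Knox line is dashed. The Merick line lies above the others, with 54.4% of counts in its first 1000 genes against 49.4% (Madison) and 49.6% (Knox).

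LOC115696993 was the most abundant gene in each of the 3 libraries. It stood at 12531 CPM in the Merick, 9821 CPM in the Madison and 8355 CPM in the Knox female. LOC115712676 followed with 9669, 8519 and 6618 CPM, and LOC115696924 with 8153, 7419.5 and 8327 CPM in the same order. LOC115714527 stood at 9113 CPM in the Merick and 9223 CPM in the Madison female, but at 4820.3 CPM in the Knox female. The Knox female was also the lowest of the 3 for LOC115701247, LOC115725330 and LOC115716971. LOC115701247 had 5762, 5537 and 2456 CPM in the Merick, Madison and Knox females, LOC115725330 had 5968, 3897 and 2253 CPM, and LOC115716971 had 4923, 4843 and 2309.5 CPM. The ranks of these 3 genes in the Knox female were 26, 31 and 29, against 9, 8 and 12 in the Merick female. For LOC115701760 and LOC115723346 the Madison female was lowest, at 3783 CPM beside 7006 CPM (Merick) and 6792 CPM (Knox) for LOC115701760, and at 4134 CPM beside 6583 CPM (Merick) and 5099 CPM (Knox) for LOC115723346. LOC115719034 closed the list and was nearly level, at 4011, 4046 and 3955 CPM.

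The Merick female had the highest level in 7 of these 10 genes, the Madison female in 2 and the Knox female in 1. Of the 10 genes, 9 are listed as protein coding in the RefSeq gene table of the Pink pepper assembly and LOC115701760 is not in it. The table places LOC115696993 and LOC115696924 on chromosome 7 and LOC115712676 and LOC115714527 on chromosome 4. It gives no gene descriptions, so no function is stated for genes known only by a LOC symbol.

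**Figure D2:**
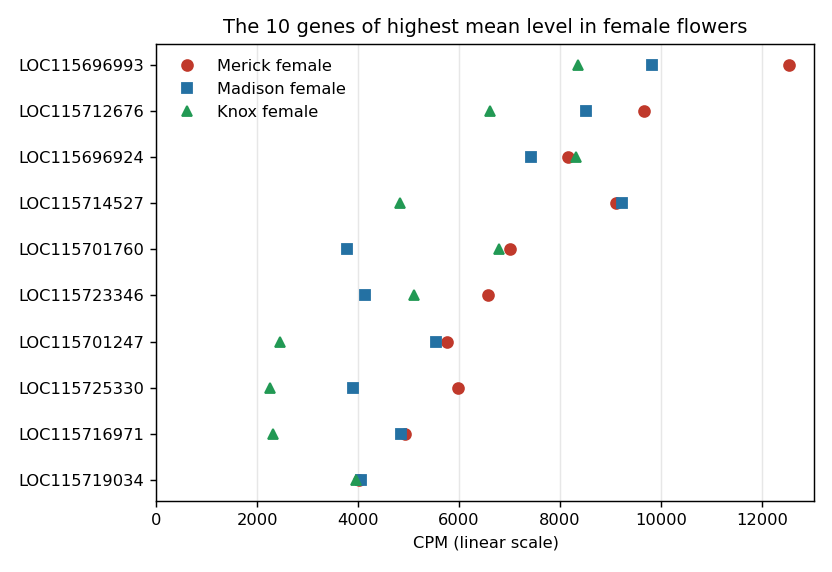
Level (x axis, CPM, linear scale) of the 10 genes of highest mean CPM over the females, 1 row per gene; circles are the Merick, squares the Madison and triangles the Knox female. LOC115696993 is highest in every library, and the symbols of LOC115719034 lie between 3955 and 4046 CPM.

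The upper ranks were largely shared between libraries. Of the top 100 genes of each library, 69 were common to all 3. The Madison and Knox females shared 85, the Merick and Madison females 75 and the Merick and Knox females 74. Among the 1000 most abundant genes of each library, 694 were common to all 3, and the pairs shared 841, 764 and 772 in the same order. Of the 100 genes of highest mean, 51 were highest in the Merick, 24 in the Madison and 25 in the Knox female. Of these 100 genes, 96 are listed as protein coding, 1 as ribosomal RNA, and 3 are not in the table.

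Of the 135 genes in the top 100 of at least 1 female, 6 lay beyond rank 1000 in another, and the Merick female was the lowest in 5 of them. They were named after their values had been seen. The widest was LOC115715128, a protein-coding gene on chromosome 4. It was the gene of rank 3 in the Knox female at 8300.3 CPM, had rank 94 in the Madison female at 935 CPM, and had rank 10894 in the Merick female at 11.6 CPM. Its highest level was 718-fold its lowest. LOC115719630 stood at 154 CPM in the Merick female, against 2005 CPM in the Madison and 788 CPM in the Knox female. LOC115710226 stood at 67.9 CPM in the Merick female, against 734 and 1209.8 CPM. LOC115722949 had 120.4 CPM in the Merick female, against 513 and 996 CPM, and LOC115724705 had 105 CPM, against 354 and 951 CPM. LOC115709616 went the other way, with 1229 CPM in the Merick female, against 155 CPM in the Madison and 198 CPM in the Knox female.

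Protein-coding genes took 96.4% of gene counts in the Merick, 96.9% in the Madison and 96.4% in the Knox female. Long non-coding RNA (lncRNA) genes, whose transcripts encode no known protein, took 0.492%, 0.420% and 0.523%. Of 825 lncRNA rows, 162 reached 1 CPM in all 3 females. The most abundant was LOC115714479, at 1039.9, 509 and 1045 CPM in the Merick, Madison and Knox females. LOC115708123 was more even, at 448, 372 and 439 CPM. LOC115694843 rose from the Merick through the Madison to the Knox female, at 222, 361 and 551 CPM. Ribosomal RNA genes held 0.465%, 0.263% and 0.483% of gene counts, nearly all of it from LOC115701758, at 4295, 2359 and 4433 CPM, and from the mitochondrial genes rrnS and rrnL. The Madison female was the lowest for both. In the Merick, Madison and Knox females rrnS (A5N79_gr01) stood at 175, 140.5 and 199 CPM and rrnL (A5N79_gr03) at 174, 129 and 202 CPM. The mitochondrial 5S gene rrn5 (A5N79_gr02) had 45 counts in the Merick, 64 in the Madison and 39 in the Knox female. These 3 ribosomal RNA genes were the mitochondrial rows at 1 CPM or more among 18. Of 476 transfer RNA rows, 37 had a count, and none reached 1 CPM in all 3 females. Their counts summed to 133, 62 and 129.

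Genes placed on X in the Pink pepper assembly took 97179 CPM in the Merick, 103079 CPM in the Madison and 101560 CPM in the Knox female, summed over 2814 rows. Of these rows, 1798 reached 1 CPM in all 3 females. The most abundant X gene, LOC115722357, stood at 4624, 2788 and 1674 CPM, highest in the Merick female. LOC115713783 was nearly even, at 2412, 2793 and 2733 CPM. LOC115712639 was lowest in the Merick female, at 606 CPM, with 2460.3 CPM (Madison) and 3213 CPM (Knox) in the others.

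The table gives a common name to 6 loci of the count files, all from cannabinoid, flavonoid or terpene synthesis. Their transcripts serve here as markers of glandular trichomes and of phenolic synthesis, and 5 of the 6 were present in every female. Markers of pollen and anther, which a female flower should lack, could not be looked up without gene descriptions. CHS (LOC115724170) encodes chalcone synthase, which opens flavonoid synthesis, and was the most abundant of the 6. It stood at 1836 CPM in the Merick, 545 CPM in the Madison and 638 CPM in the Knox female. The Merick female was thus well above both others for CHS, at rank 47 against ranks 203 and 164. OAC (LOC115723438), olivetolic acid cyclase, stood at 409, 49.8 and 327 CPM, so that the Madison female was 8.22-fold below the Merick female. CBDAS (LOC115697762), the oxidocyclase that forms cannabidiolic acid, stood at 261, 80.2 and 229 CPM. TPS1 (LOC115716064), a terpene synthase, stood at 37.8, 3.31 and 61.5 CPM. The Madison female was therefore the lowest of the 3 for CHS, OAC, CBDAS and TPS1.

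LOC115699293, a polyketide synthase locus (PKSF3, PKSG2, PKSG4) upstream of OAC in the pathway, did not share that order. It stood at 89.9, 57.2 and 47.1 CPM in the Merick, Madison and Knox females. LOC115696884 carries the names CBDAS2, CBDAS3 and THCA5, and among the females its reads came from the Merick library alone (16 counts, 0.414 CPM). Oxidocyclase genes form a family of near-identical copies, so the counts of CBDAS and of this locus are uncertain. In edgeR's fit of the Merick female against the other females, the median log2 fold change of the 6 was 1.13. It was -0.03 over all tested genes. CHS had a log2 fold change of 1.81 with SE 0.31 in that fit. With 1 library on one side these are given as sizes, not as calls. The median does not mean that the Merick female stood apart from both others for each locus. Beside the Knox female it was 409 against 327 CPM for OAC and 261 against 229 CPM for CBDAS. For TPS1 it was lower, at 37.8 against 61.5 CPM, and LOC115696884 entered the median on 16 counts.

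Spread between the 3 libraries depended on level. Genes with a mean of 1 to 10 CPM and a count in every female had a median ratio of highest to lowest CPM of 2.17 (4787 genes). At 10 to 100 CPM the median ratio was 1.48 (10151 genes), at 100 to 1000 CPM it was 1.45 (1746 genes), and at 1000 CPM and over it was 1.67 (85 genes). A ratio above 4 was found in 24.7% of genes at 1 to 10 CPM and in 5.37%, 4.07% and 5.88% at the higher levels. The direction of the spread also changed with level. Of the genes at 10 to 100 CPM, 52.6% were lowest in the Merick female and 25.8% highest there. Of the 85 genes at 1000 CPM and over, 25.9% were lowest and 51.8% highest there. These shares rest on library totals and were not repeated with another scaling. The trimmed mean of M-values (TMM) factors among the females were 0.925 (Merick), 1.033 (Madison) and 1.046 (Knox). A factor under 1 raises the scaled levels of a library. Over 16929 genes that passed the filter with the females as 1 group, the common biological coefficient of variation estimated by edgeR was 0.39 among the females.

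**Figure D3:**
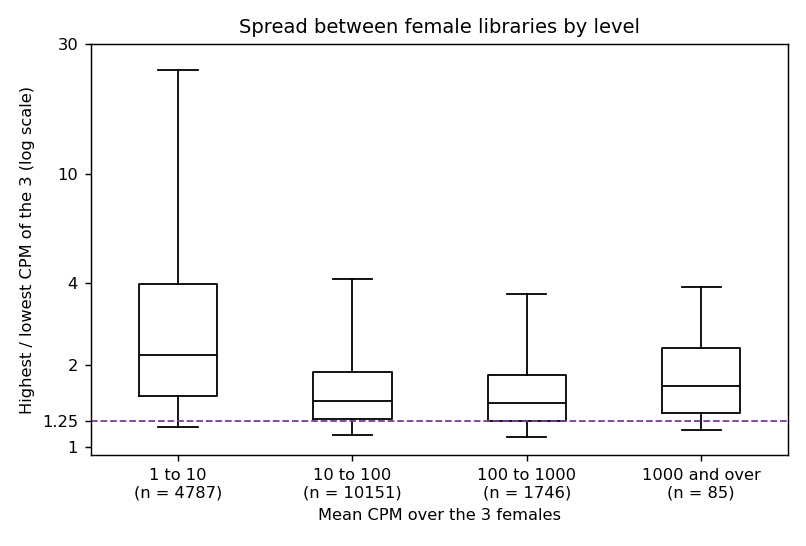
Ratio of the highest to the lowest CPM of the 3 females (y axis, log scale) for genes grouped by mean CPM (x axis, number of genes in parentheses). Boxes show the quartiles with the median as a line, whiskers the 5th and 95th percentiles, and the dashed line the limit for steady genes; the median is 2.17 at 1 to 10 CPM and between 1.45 and 1.67 above that.

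A gene was called steady where its highest CPM exceeded its lowest by at most 25% and its lowest was at least 10 CPM. This held for 2702 of the 10524 genes at 10 CPM or more in all 3 females (25.7%). With TMM scaling among the females in place of library totals it held for 3007. Steady genes had a median mean level of 39.6 CPM. Of them, 2655 are listed as protein coding and 6 as lncRNA. Genes placed on X were steady in 336 cases, 27.1% of the X genes at 10 CPM in all 3 females.

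Of the 100 most abundant genes 17 were steady, a smaller share than the 25.7% over all genes at 10 CPM in every female. The most abundant was LOC115696924 (given above), with a coefficient of variation (CV) of 6.05%. Next came LOC115719034, at 4004 ± 45.7 CPM (SD, n = 3), a CV of 1.14%. LOC115706303 stood at 3733, 3369 and 3034 CPM in the Merick, Madison and Knox females, LOC115713783 on X has been described, and LOC115708676 stood at 2944, 2382 and 2399 CPM. LOC115717421 completed the 6 most abundant steady genes, at 1728, 2056 and 1805 CPM (1804.5 before rounding). For LOC115719034 counting error alone gives a CV of 0.276%, so its libraries still differed by more than counting error.

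The 6 steadiest genes were LOC115700472, LOC115700563, LOC115722226, LOC115716041, LOC115725733 and LOC115722418, all listed as protein coding. LOC115700472 stood at 24.6, 24.6 and 24.7 CPM in the Merick, Madison and Knox females, a CV of 0.249%. Counting error alone gives a CV of 3.52% at its depth, and 204 of the 2702 steady genes had a CV at or under the value that counting error gives. The order among such genes cannot be read at this depth. LOC115722418 was the most abundant of the 6, at 218, 219 and 220.2 CPM with a CV of 0.457%, against 1.18% from counting error.

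The male libraries took no part in choosing the steady genes. Of the 2702, 2354 were at 10 CPM or more in every male, and 469 of these (19.9%) also stayed within 25% there. Among the 7822 genes at 10 CPM in every female that were not steady, 6216 were at 10 CPM or more in every male and 929 of these (14.9%) did so. The median ratio of highest to lowest male was 1.53 for the steady genes and 1.66 for the others. LOC115719034 stood at 5944, 3655 and 3617 CPM in the Merick, Madison and Knox males, a wider range than in the females. LOC115725733 was near level in both sexes, at 42.3, 42.3 and 41.97 CPM in those females and 42.7, 50.1 and 48.9 CPM in those males.

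The Merick female differed more from the other females than those did from each other. On the log2(CPM + 1) scale, over the 13021 genes with at least 1 female at 10 CPM, a difference of 4-fold or more separated the Merick and Madison females in 544 genes (4.18%) and the Merick and Knox females in 579 (4.45%). It separated the Madison and Knox females in 256 genes (1.97%). These pairs share libraries, so the counts are not independent of each other. The median log2 difference was -0.17 for Merick minus Madison and -0.15 for Merick minus Knox, against 0.01 for Madison minus Knox. In edgeR's fit the median log2 fold change of the Merick contrast was -0.03 with TMM scaling, which centres most genes by construction, and -0.20 with library totals.

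edgeR's quasi-likelihood test of the Merick female against the Madison and Knox females had 1 residual degree of freedom, and the lone Merick library was assumed to vary like the others. It called 0 of 19207 genes (0%) at an adjusted p under 0.05, with 0.12 as the lowest value reached. Before adjustment 2857 genes (14.9%) had p under 0.05. DESeq2 called 1386 of 18608 genes on the same counts (7.45%), of which 495 were higher and 891 lower in the Merick female. With 1 library on one side the differences below are therefore given by size, not as calls.

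Genes were singled out where the Merick female lay at least 4-fold from the nearer of the other females on the log2(CPM + 1) scale. It lay that far below both in 244 of 13021 genes (1.87%) and that far above both in 63 (0.484%). With TMM scaling these counts were 195 and 79. The same rule gave 60 genes below and 35 above for the Madison female, and 53 below and 58 above for the Knox female. Of the 244 genes low in the Merick female, 16 had no count there and 40 reached 100 CPM in another female.

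**Figure D4:**
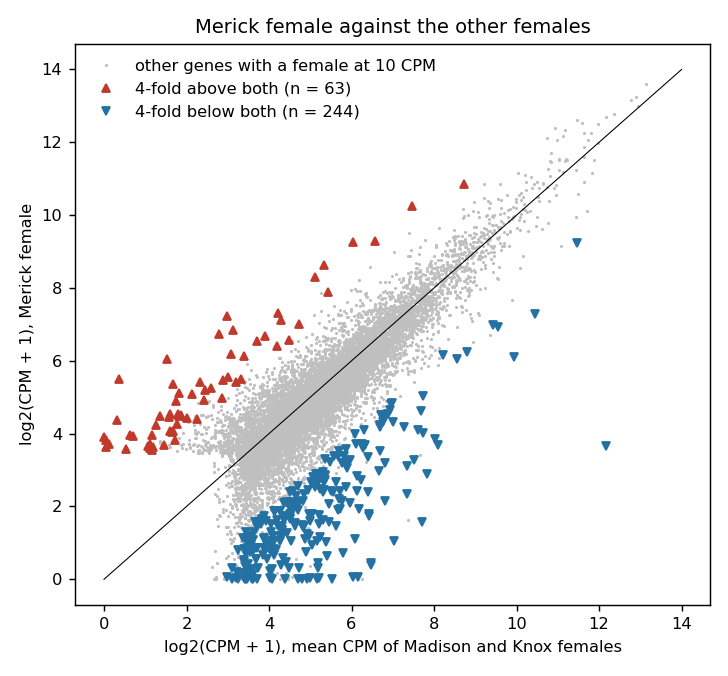
log2(CPM + 1) in the Merick female (y axis) against the log2(CPM + 1) of the mean CPM of the Madison and Knox females (x axis) for the 13021 genes with a female at 10 CPM; the line marks equality. The 244 genes at least 4-fold below both other females (downward triangles) outnumber the 63 at least 4-fold above both (upward triangles).

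LOC115715128, described above, was the furthest below, at 11.6 CPM in the Merick female against 935 and 8300.3 CPM (edgeR log2 fold change -8.46 with SE 2.37). The Madison and Knox females differed widely for it, whereas they were close together for most of the next genes. LOC115700763, a lncRNA gene on chromosome 8, stood at 0.31 CPM in the Merick female, against 91.2 CPM in the Madison and 83.3 CPM in the Knox female (edgeR log2 fold change -7.95 with SE 0.37). LOC115712185 had 1 count in the Merick female, against 36.2 CPM in each of the others, a pooled ratio of 1400.0 for the others over Merick (95% exact interval 251 to 55321, for counting error only). LOC115719346 stood at 4.09 CPM in the Merick female, against 162 and 159.9 CPM. LOC115724459 stood at 1.09 CPM in the Merick female, against 164 CPM in the Madison and 97.05 CPM in the Knox female.

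Genes with no count in the Merick female were read as limits. LOC115711557 stood at 44.2 CPM in the Madison and 45.8 CPM in the Knox female, and against a floor of 3 counts in the Merick library it was at least 579-fold lower there. LOC115701527, a lncRNA gene on chromosome 5, stood at 38.04 and 32.03 CPM and was at least 457-fold lower in the Merick female. LOC115701230 had 2 counts in the Merick female, against 30.96 CPM in the Madison and 97.3 CPM in the Knox female, a pooled ratio of 1157 (95% exact interval 320.0 to 9556, for counting error only). The 8 low genes named here and above were chosen by size from the same female libraries, so a test on those libraries gives no separate support for them.

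The gene furthest above both others in the Merick female was LOC115698990, a lncRNA gene on chromosome 8. It stood at 44.5 CPM in the Merick female, against 0.20 CPM in the Madison and 0.37 CPM in the Knox female (edgeR log2 fold change 7.47 with SE 0.47). LOC115708343 was the most abundant of the 8, at 149 CPM in the Merick female, against 8.23 and 5.49 CPM. LOC115708325 stood at 65.3 CPM, against 1.26 and 2.49 CPM, and LOC115712742 at 19.9 CPM, against 0.34 and 0.15 CPM. LOC115695723, a lncRNA gene on chromosome 6, drew 545 counts from the Merick female and 0 from both others, at least 291-fold higher against a floor of 3 counts over both. LOC115704701 and LOC115715895 drew 509 and 437 counts from the Merick female and 2 counts each from the others, and LOC115703964 stood at 12.1 CPM, against 0.17 and 0 CPM. These 8 high genes were chosen by size from the same female libraries, so a test on those libraries gives no separate support for them.

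**Figure D5:**
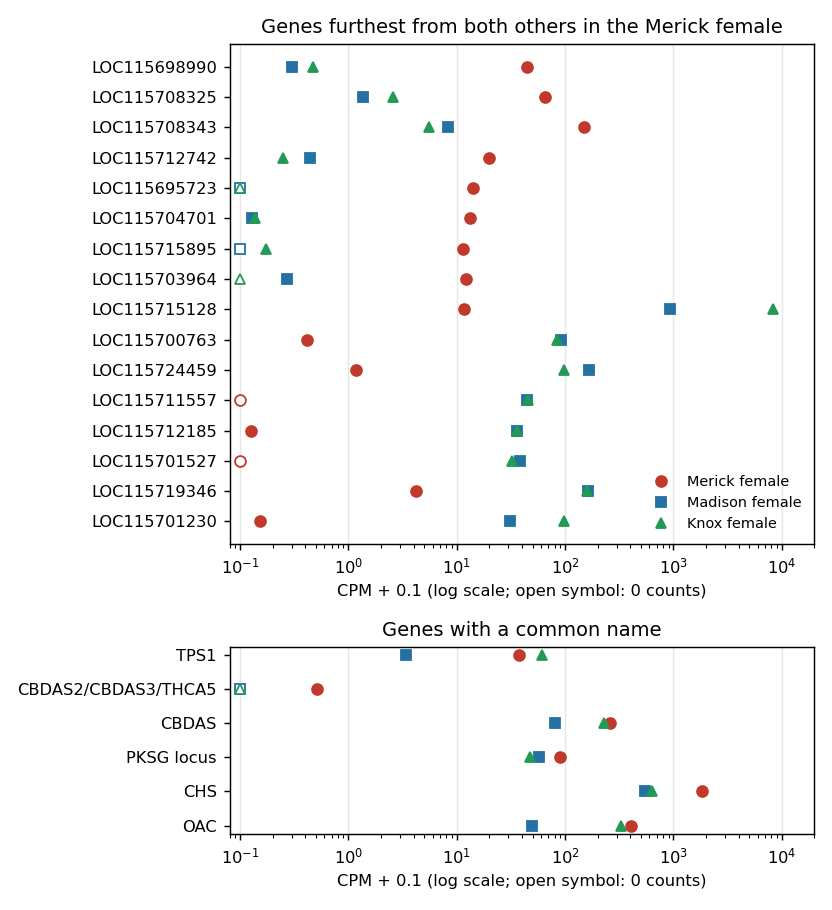
Level (x axis, CPM + 0.1, log scale) in the Merick (circles), Madison (squares) and Knox (triangles) females; open symbols have 0 counts. The upper panel shows the 8 genes furthest above and the 8 furthest below both others in the Merick female, and the lower panel the 6 loci with a common name, among which CHS, OAC, CBDAS and TPS1 are lowest in the Madison female.

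Some of these genes were neighbours, taken as next to each other along a chromosome of the table among genes with a row in the counts, with no test of their number. Of the 244 low genes, 220 are placed on a chromosome of the Pink pepper assembly, and 6 adjacent pairs occurred among them. Of the 63 high genes, 50 are placed, with 2 adjacent pairs. By comparison, 5 pairs occurred among the 96 placed genes of the top 100 by mean and 366 among the 2636 placed steady genes. Among the 12318 placed genes with a female at 10 CPM there were 7529. Such counts grow with the size of a set, so they are not read as clustering. The pair with the highest levels was LOC115708947 and LOC115711569 on chromosome 3, at 312 and 609.8 CPM in the Merick female, against 24.3 and 82.3 CPM in the Madison and 43.1 and 47.2 CPM in the Knox female (LOC115708947 named first each time). On chromosome 2, LOC115718794 stood at 1.99 CPM in the Merick female, against 58.1 CPM in the Madison and 356 CPM in the Knox female. Its neighbour LOC115720837 had 0.36 CPM (Merick), 6.48 CPM (Madison) and 64.4 CPM (Knox), so both were graded from Knox down to Merick. Genes on X made up 30 of the 244 low genes, 1.96% of the X genes with a female at 10 CPM, near the 1.87% over all such genes. lncRNA genes made up 10 of the 244 (4.10%), against 0.783% of all genes with a female at 10 CPM, where no test was made. Of the 63 high genes 2 were lncRNA genes (3.17%), so the share is not read as particular to the low genes. The share of the high genes rests on those 2 alone. Gene types were not counted for the sets of the Madison and Knox females. Rows absent from the table made up 8.20% of the low and 20.6% of the high genes, against 4.06% of all such genes.

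The largest single differences were found in the other females. On the log2(CPM + 1) scale the furthest gene lay 8.22 below and 7.25 above both others in the Madison female, 8.01 below and 6.74 above in the Knox female, and 6.22 below and 5.05 above in the Merick female. At 16-fold or more, 21 genes were below and 3 above in the Merick female, 11 and 8 in the Madison female, and 11 and 13 in the Knox female, so that at this limit the Merick and Knox females had equal totals. LOC115723894 on chromosome 9 stood at 151 CPM in the Madison female and had no count in the Merick or Knox female. LOC115705054 on chromosome 1 stood at 0.43 CPM in the Madison female, against 424 CPM in the Merick and 707 CPM in the Knox female. LOC115714483, a lncRNA gene on chromosome 4, had no count in the Madison female, against 233 CPM in the Merick and 75.2 CPM in the Knox female. LOC115716233 on chromosome 5 stood at 329 CPM in the Knox female and at 2.09 and 1.49 CPM in the Merick and Madison females. LOC115704972, absent from the table, stood at 0.48 CPM in the Knox female, against 382 CPM in the Merick and 671 CPM in the Madison female. LOC115708857, also absent from it, had no count in the Knox female, against 165 CPM in the Merick and 74.9 CPM in the Madison female.

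At 10 CPM on-off differences were about as many in each library. Of the genes at 10 CPM or more in both other females, 7 had no count in the Merick, 6 in the Madison and 6 in the Knox female. At 10 CPM or more in 1 female with no count in both others there were 1, 4 and 4 genes in the same order. At the lower bound of 1 CPM in both others, 73 genes had no count in the Merick, 32 in the Madison and 44 in the Knox female. LOC115695723, seen in the Merick female alone among females, stood at 14.2, 8.02 and 7.96 CPM in the Merick, Madison and Knox males. LOC115708671 had no count in the Merick female, against 24.8 CPM in the Madison and 28.7 CPM in the Knox female. It also had no count in the Merick male, against 22.7 CPM in the Madison and 9.05 CPM in the Knox male. LOC115723301 had no count in the Merick female either, against 12.3 CPM (Madison) and 37.6 CPM (Knox), but the males differed. It stood at 81.4 CPM in the Merick, 0.024 CPM in the Madison and 0.025 CPM in the Knox male. LOC115711557, LOC115701527 and LOC115711399, also without a count in the Merick female, stood at 20.5, 13.3 and 12.5 CPM in the Merick male.

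The males, which the size rule did not use, show how the Merick male stood for the same genes. Of the 63 genes high in the Merick female, the Merick male lay above both other males in 45 (71.4%) and below both in 8 (12.7%). Over all 13021 genes these shares were 50.7% and 35.1%. Of the 244 genes low in the Merick female, the Merick male lay below both other males in 110 (45.1%) and above both in 78 (32.0%). Differences of 4-fold below both other males were found in 20 of the 244 genes (8.20%), against 1.57% of all 13021, and differences of 4-fold above both in 10 of the 63 (15.9%), against 5.62%. In the opposite direction, the Merick male lay 4-fold above both other males in 16 of the 244 genes (6.56%). It lay 4-fold below both in 1 of the 63 (1.59%). The 2 libraries labelled Merick share a location and perhaps more that the labels do not give, and no test was made of these shares. The sets also differ in male level: 32 of the 63 and 164 of the 244 genes reached 10 CPM in a male, against 11790 of all 13021.

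Set against the male flowers, the female flowers held more of their reads in few genes. The share of the top 10 genes was 6.67% ± 0.85 in females and 4.39% ± 0.23 in males, and that of the top 100 genes 22.5% ± 2.34 in females and 16.7% ± 0.48 in males (SD, n = 3 each). Every female was above every male for both, and the two-sided p of an exact permutation test was 0.1 for each, the smallest that 3 against 3 can give (adjusted over 4 measures, 0.13). The number of genes at 1 CPM, 16697 ± 291 in females and 17049 ± 291 in males, overlapped between the sexes (exact permutation p = 0.3). The median absolute log2 difference of a library from the mean of the others of its sex was 0.38 for the Merick, 0.29 for the Madison and 0.27 for the Knox female, against 0.40 to 0.69 in the males (exact permutation p = 0.1). Without the Merick male the sign of that last difference turned, at 0.046 for females minus males in place of -0.20.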

How the data were processed

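Each library came as a table of raw gene counts deposited by the authors, with 29777 gene rows and 5 closing rows named as htseq-count names them. The closing rows held 14.9% to 16.7% of listed reads in the females and were left out. Per the labels' protocols, column-purified RNA was treated with DNase before Illumina library preparation. Aligner, counting settings, build and strand rule were not given in the sources used here. Values of overlapping, antisense and near-identical genes are therefore uncertain. Of 29283 LOC symbols, 23050 were found in the RefSeq gene table of the Pink pepper assembly, which was used for gene type, chromosome and neighbours. It has no descriptions or transcript lengths, so 10 of 14 gene lists could not be used and levels per length were not computed. The 4 used were genes with a common name, mitochondrial rows, transfer RNA rows and X.

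CPM used library totals. The Merick test used edgeR 4.0.16 (TMM, filterByExpr, robust quasi-likelihood, Benjamini-Hochberg) in R 4.3.3 on the 3 females. DESeq2 1.42.0, other scalings, filters, pseudocounts, thinning and left-out libraries were alternatives. The edgeR step was also run on simulated counts with added differences of known size. There the Merick library was made to vary like the others, so that run cannot test this assumption. Named genes were the top 10 by mean, the 6 most abundant and the 6 steadiest steady genes, the 8 furthest above and below in Merick, the 3 furthest in Madison and Knox (of which some are printed), genes with 0 counts on one side, and genes with a common name. Members, lists and rules were chosen with earlier results of these data known.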

Additional observations from a re-analysis of the deposited data

Results flagged for a closer look

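Of the 8 genes named as low in the Merick female, the Merick male lay above both other males in 5. That was so in 32.0% of all 244 low genes and in 50.7% of the 13021 genes considered, so the count of 5 is not read as a result. The difference between the sexes in Merick minus the mean of the other libraries is given on the log2(CPM + 1) scale as female minus male. It was -8.44 for LOC115724459, with 91.5 CPM (Merick male), against 29.6 CPM (Madison male) and 7.61 CPM (Knox male). It was -7.47 for LOC115712185 (29.7 CPM, against 6.58 and 4.24 CPM, in the same order) and -6.84 for LOC115719346 (2125 CPM, against 1234 and 280.1 CPM). It was -6.81 for LOC115701230 (66.1 CPM, against 25.8 and 37.02 CPM) and -6.46 for LOC115711557 (20.5 CPM, against 13.4 and 7.78 CPM). In an interaction test over all 6 libraries with 2 residual degrees of freedom, no gene passed, and the adjusted p of these 5 genes by edgeR was 0.054 to 0.13; at an unadjusted p under 0.05 there were 4034 of 21094 genes. The 5 genes were chosen from these same libraries, as low in the Merick female and above both other males in the Merick male. That choice fixed the sign of the difference, so the test gives no separate support for them. No cause was tested. Groups of 3 libraries are too small for a check of single outlying libraries.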

How the results depend on the processing

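Between the Merick and the other females edgeR called 0 genes with relative log expression, upper-quartile or library-size scaling and with all 6 libraries in the fit. It called 161 higher and 258 lower with no filter beyond 1 count, and 3 higher and 16 lower with a filter of 10 CPM in 1 library; DESeq2 called 495 higher and 891 lower. The cause was not tested. The 244 low and 63 high genes became 81 and 23 with a pseudocount of 5 CPM, 81 and 20 with the highest female at 50 CPM, and 21 and 3 at 16-fold, a setting added after seeing the data, at which the Knox female had 11 and 13. With the Madison or the Knox female left out they were 336 to 408 and 143 to 174, since only 1 library then had to be passed. Steady genes numbered 564 at a ratio of 1.1, 6083 at 1.5 and 978 at a lowest level of 50 CPM. With 1 female left out, only 2 libraries had to be level. Steady genes then numbered 7203 without the Merick, 5021 without the Madison and 4817 without the Knox female. Females minus males for spread within the sex ranged from -0.42 to 0.046 with 1 library left out and turned sign at 0.046 without the Merick male. Taking location as a replicate block left each female minus male mean as it was (2.28 percentage points for the top 10 share), with an exact sign-flip p of 0.25, the smallest that 3 pairs allow, for all but the number of genes at 1 CPM (0.5); the labels do not say that location pairs the libraries. The other 73 summary values moved by less than 1 SD or 1.5 times, or kept their sign, and of the values of single genes 245 kept their side of the threshold, 37 passed it only under DESeq2 or another filter and 4 fell short of 4-fold with a pseudocount of 5 CPM. Ranking by coding length was not run, as no protein lengths were given.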

Other observations

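LOC115701760, the fifth gene by mean level and absent from the gene table, moved with the ribosomal RNA gene LOC115701758 across the females. The ratio of their CPM was 1.63 in the Merick, 1.60 in the Madison and 1.53 in the Knox female, while the level of LOC115701760 itself differed 1.85-fold. The ratio was 0.59, 0.92 and 1.03 in the Merick, Madison and Knox males. The pair was chosen after its values had been seen, and no test was made.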
